A study of Mus musculus with 14 samples.

Results

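The lipid synthesis, uptake and oxidation genes described here are 51 mouse genes listed by name, of which 46 had a probe set with that single gene symbol on the array, out of 8251 symbols in all. Their RNA levels were read from 14 Affymetrix U74v2 arrays, each holding the RNA of 1 animal. Tumors were dissected from SPC/c-Myc-transgenic mice, hemizygous for c-Myc under the surfactant protein C promoter, which is active in the respiratory epithelium. There were 3 pools of small tumors (1 mm, each pool from 1 animal), 4 middle-sized tumors (4 to 5 mm) and 3 large tumors (10 mm or more). Control lung came from 4 non-transgenic mice. All mice were aged 9 to 13 months on the CD2F1-(DBA/2xBalb/C) background, killed with CO2, and the labels name no other treatment. Lung was thus set against dissected tumors, and in such bulk samples fewer cells of a type and less RNA per cell cannot be told apart. The same 4 control lungs served all comparisons with control lung. The RNA of Myc itself had signals of 325 to 2165 in tumors, against 24.1 to 35.6 in control lung (adjusted p = 5.02e-08).

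Cells make fatty acids in the cytosol from citrate, through acetyl-CoA and malonyl-CoA, and desaturate and elongate them before they enter phospholipids, triglycerides or cholesterol esters. The SREBP transcription factors drive the enzymes of this route and of cholesterol synthesis, while fatty acids are burned in mitochondria after carnitine-dependent import. In the lung, alveolar type II cells synthesize fatty acids and phosphatidylcholine for surfactant, and endothelial cells, macrophages and fat cells take up or release lipid through proteins such as Lpl, Cd36 and Lipe.

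Signals are linear intensities scaled to 250 per array, and 70 is the limit the study used for an expressed gene. Of the 46 genes, 43 reached 70 on at least 3 arrays and were tested, each with 1 probe set. The other 3 did not. Insig1, which retains SREBP precursors in the endoplasmic reticulum, stayed at or below 20.4 on every array, and Acadvl, a very-long-chain acyl-CoA dehydrogenase, at or below 17.2. Fabp1, a fatty acid binding protein of liver and gut, reached 131 in 1 control lung and at most 37.5 in tumors. Acaca, Srebf2, Acsl1, Abca3 and Cpt1b were not analysed here. The array of middle-sized tumor 3 listed 25.2% of its values at 0, which were treated as missing, so Acly, Mvd, Lss, Fabp5, Pcyt1a, Lpcat1 and Acads have 9 tumor values in place of 10. Correlations between replicate arrays were 0.971 to 0.981 in small, 0.868 to 0.938 in middle-sized and 0.936 to 0.941 in large tumors, and 0.928 to 0.983 in control lung. The number of arrays limits the precision, and p-values cover the spread between these animals.

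Over all tumors, 10 of the 43 genes were higher than in control lung at an adjusted p under 0.05 (limma, Benjamini-Hochberg over all 6914 probe sets tested) and 8 were lower. These are 23.3% and 18.6% of the tested genes, against 23.6% higher and 21% lower (44.6% in either direction) among all probe sets tested, so the list as a whole changed about as often as the rest of the array. The median log2 fold change was 0.11 for the 43 genes, against 0.04 for all probe sets. The plot of fold changes gives the genes by role. Acly, Fasn, Me1, Srebf1, Acsl4, Acsl5, Lpcat1, Acadm, Acadl and Hadh rose. Cd36, Lpl, Lipe, Lpin1, Pltp, Cpt1a, Fdps and Sc5d fell. In 8 genes (18.6%) every tumor lay above every control lung, against 10.2% of all probe sets, and in 4 genes (9.30%) every tumor lay below, against 12.2%.

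**Figure D1:**
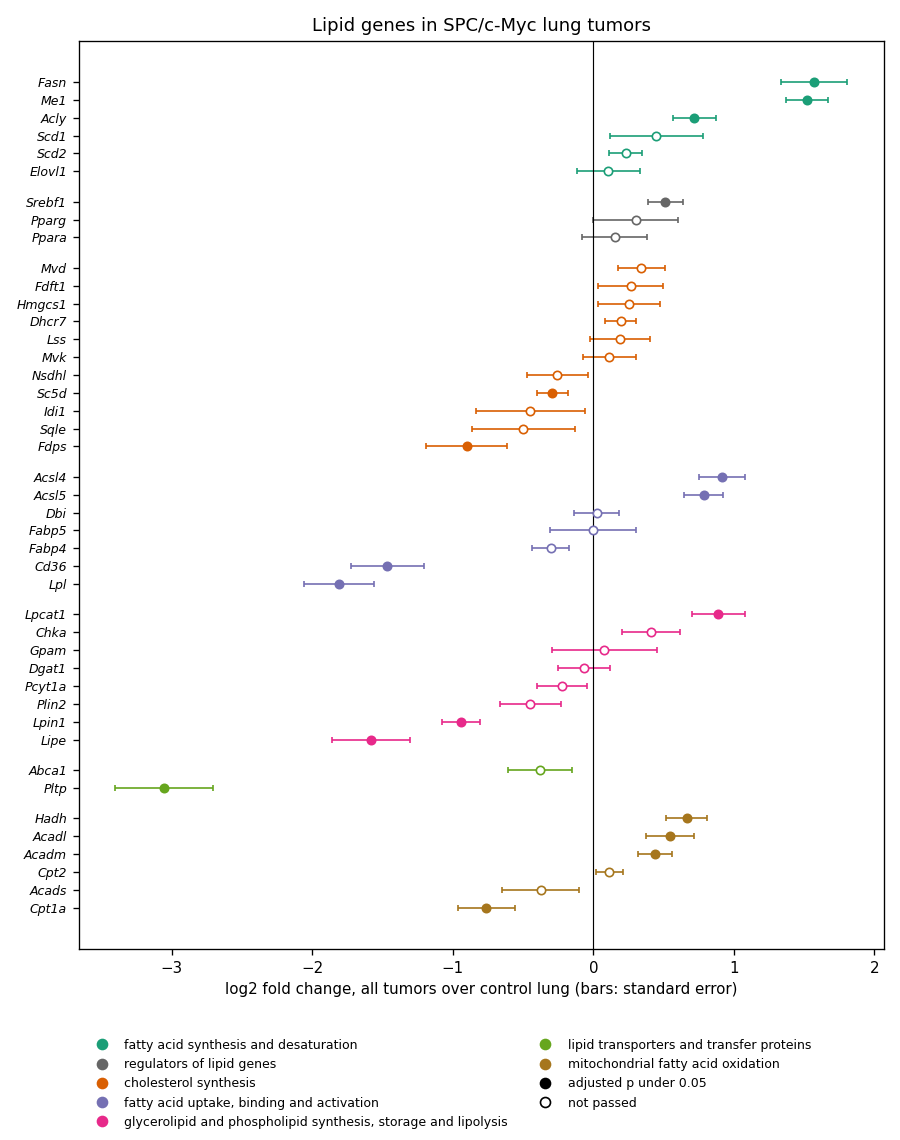
Log2 fold change of all tumors over control lung for the 43 tested lipid genes, grouped by role and sorted by size within each role. Bars are standard errors of the limma fit, filled points have an adjusted p under 0.05 (10 higher, 8 lower), and the extremes are Fasn at 1.57 and Pltp at -3.05.

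Of the 6 tested genes of fatty acid synthesis and desaturation, 3 rose (50%) and none fell, against 23.6% higher and 21% lower of all probe sets. The 3 that rose make the acetyl-CoA, the NADPH and the palmitate of the route. Fasn, the fatty acid synthase, had signals of 2354, 2707 and 2719 in small tumors, 2838, 3368, 2242 and 1435 in middle-sized tumors and 2986, 3477 and 1478 in large tumors, against 656, 747, 924 and 1062 in control lung. Every tumor was above every control lung, with middle-sized tumor 4 and large tumor 3 well below the other 8 tumors. The mean was 3.02-fold that of control lung (log2 fold change 1.57, standard error 0.24, adjusted p = 9.6e-05). Its RefSeq promoter (GRCm38.p6, chr11:120824548-120824697, minus strand, the last 150 bases before the start site) is shown because Fasn had the largest rise of the list, with CCAAT boxes (CCAAT on either strand, so CCAAT or ATTGG) in capitals.
Fasn: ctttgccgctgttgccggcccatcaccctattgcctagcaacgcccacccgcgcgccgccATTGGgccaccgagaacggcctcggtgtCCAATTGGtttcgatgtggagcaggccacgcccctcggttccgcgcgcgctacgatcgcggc
The window holds 3 such boxes, at -90 to -86, -62 to -58 and -59 to -55 from the start site, the last pair overlapping.

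Me1, the cytosolic malic enzyme that yields NADPH for lipid synthesis, had signals of 1567, 1604 and 1412 in small tumors, 2396, 2182, 1759 and 1599 in middle-sized tumors and 1498, 1369.7 and 1080.1 in large tumors, against 498, 414, 701 and 627 in control lung. The groups did not overlap, and the lowest tumor was large tumor 3. The mean of tumors was 2.94-fold that of control lung (log2 fold change 1.52, standard error 0.15, adjusted p = 1.91e-06). Acly, the ATP citrate lyase that supplies cytosolic acetyl-CoA, was smaller in its change, 2001 ± 363 in tumors (SD, n = 9), against 1205 ± 143 in control lung (SD, n = 4), with every measured tumor above every control lung (log2 fold change 0.72, standard error 0.15, adjusted p = 0.00174). This call was lost (adjusted p = 0.764) when the 0 listed for middle-sized tumor 3 was kept as a value.

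The desaturases and the elongase did not pass the test. Scd1, the main stearoyl-CoA desaturase of lipogenic tissue, had signals of 6251, 6449 and 7393 in small tumors, 7397, 7936, 7536 and 2365 in middle-sized tumors and 6662, 7420.1 and 2573 in large tumors, against 3359, 3447, 4337 and 6303 in control lung. Most tumors lay near or above the highest control lung, but middle-sized tumor 4 and large tumor 3 lay below all 4, and the groups overlapped (log2 fold change 0.45, standard error 0.33, adjusted p = 0.294). A further probe set of Scd1 gave a log2 fold change of 0.37 (adjusted p = 0.211). Scd2, a second desaturase, ranged over 2934 to 4565 in tumors, against 3071 to 3696 in control lung (log2 fold change 0.23, adjusted p = 0.127). Elovl1, an elongase of very long fatty acids, ranged over 129.6 to 255 in tumors, against 111 to 269 in control lung (log2 fold change 0.11, adjusted p = 0.736).

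**Figure D2:**
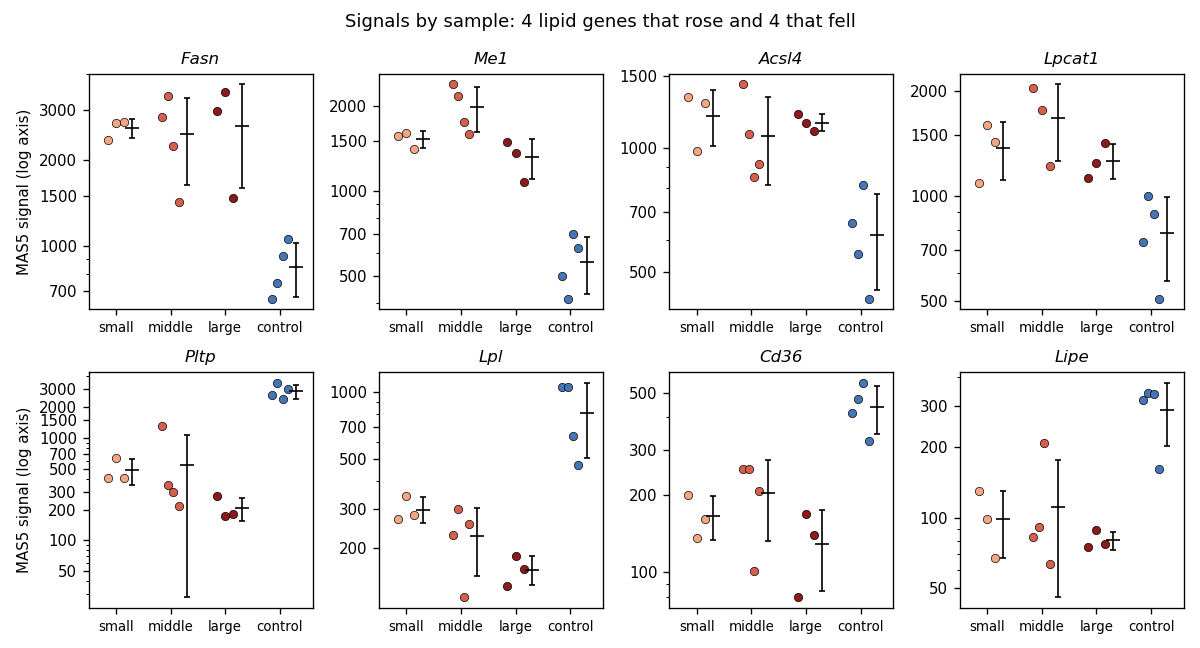
MAS5 signals (log axis) by sample of 4 lipid genes that rose (Fasn, Me1, Acsl4, Lpcat1) and 4 that fell (Pltp, Lpl, Cd36, Lipe), with points for arrays and black marks for the mean and SD of small, middle-sized and large tumors and control lung. Tumors and control lung do not overlap for 7 of the genes, while for Lipe middle-sized tumor 3 (208) lies above control lung 4 (161).

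Among the 3 tested regulators, Srebf1 rose. This gene, which encodes the SREBP-1 factors that drive fatty acid synthesis, had signals of 887, 1008 and 926 in small tumors, 1634, 1128, 1194 and 946 in middle-sized tumors and 1121, 1096 and 934 in large tumors, against 738, 671, 776 and 783 in control lung. The highest value was that of middle-sized tumor 1, and no tumor reached down into the control range (log2 fold change 0.51, standard error 0.13, adjusted p = 0.00389). Pparg, a nuclear receptor of fat cells and lipid-laden macrophages, was under 80 in 8 of 10 tumors and under 75 in control lung, but reached 228 in middle-sized tumor 4 and 187 in large tumor 3 (log2 fold change over all tumors 0.30, adjusted p = 0.455). Those are the tumors with the lowest Scd1 and Fasn signals. Marco, a macrophage receptor too dim to be tested, reached 70 and 53.1 on these 2 arrays and was at or below 9.68 on the others. Other macrophage markers differed in direction. Chil3 was high there at 1636 and 1457, against 277 to 1314 in the other tumors. Lyz2 was low at 3368 and 1839, against 3522 to 6167. Cd68 (340 and 352), Itgax (204 and 210), Csf1r (222 and 198) and Mrc1 (97.2 and 74.5) were below their tumor medians of 388, 246, 255 and 111. The sum of 9 macrophage markers was 6006 in middle-sized tumor 4 and 4210 in large tumor 3. The latter was the lowest of all tumors, which ranged up to 7766. Any part of such cells in the Pparg values was not tested. Ppara, the nuclear receptor that drives fatty acid oxidation in liver, ranged over 81.3 to 229 in tumors, against 109 to 188 in control lung (log2 fold change 0.15, adjusted p = 0.629).

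Of the 11 tested genes of cholesterol synthesis, none rose and 2 fell (18.2%), against 23.6% higher and 21% lower of all probe sets. However, Dhcr7 and Mvd passed as higher in some alternatives. Fdps, which makes farnesyl diphosphate, had signals of 263, 315 and 365 in small tumors, 759.5, 412, 213 and 422 in middle-sized tumors and 360.3, 197 and 301 in large tumors, against 487, 406, 901 and 794 in control lung. The groups overlapped, since middle-sized tumors 1, 2 and 4 exceeded control lung 2 and middle-sized tumor 1 also control lung 1 (log2 fold change -0.90, standard error 0.29, adjusted p = 0.0205). The call was lost without control lung 3 (adjusted p = 0.0916) or control lung 4 (adjusted p = 0.076), and a further probe set of Fdps did not pass (log2 fold change -0.46, adjusted p = 0.132). Sc5d, a sterol desaturase late in the route, was below 70 in all tumors and between 54.4 and 109 in control lung. Its adjusted p of 0.0458 passed the threshold narrowly and was lost in 16 of 27 alternatives.

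The other 9 genes did not pass. Hmgcs1, the cytosolic HMG-CoA synthase, ranged over 419 to 959 in tumors, against 350.2 to 827 in control lung. Sqle, the squalene epoxidase, ranged over 213 to 1128 in tumors, against 294 to 762 in control lung, and Idi1, the isopentenyl diphosphate isomerase, over 94.2 to 569 in tumors, against 206 to 568 in control lung. Log2 fold changes were 0.25 for Hmgcs1, -0.50 for Sqle and -0.45 for Idi1, with standard errors from 0.22 to 0.39. The remaining ones were 0.34 for Mvd and 0.11 for Mvk (mevalonate decarboxylase and kinase), 0.27 for Fdft1 (squalene synthase), 0.19 for Lss (lanosterol synthase), -0.26 for Nsdhl and 0.19 for Dhcr7 (late sterol enzymes). The value of Dhcr7, with signals of 28.5 to 111 in tumors, against 27.6 to 74 in control lung, depends on the floor of 70 below which signals were set to 70. With a floor of 35 it was called higher at 0.78 (adjusted p = 0.0206), and with no floor at 0.91 (adjusted p = 0.0271). Without middle-sized tumor 1, Sqle was called lower at -0.67 (adjusted p = 0.0306), and without middle-sized tumor 2, Mvd was called higher at 0.42 (adjusted p = 0.0339). Mvd also passed with quantile normalization, scaling to 1 median or array weights (adjusted p from 0.0238 to 0.0279).

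The spread within groups was wide, and many genes of the route were high in the same animals. Middle-sized tumor 1 had the highest value of the measured tumors in 8 of the 11 genes (Hmgcs1, Mvk, Mvd, Idi1, Fdps, Fdft1, Sqle and Nsdhl). For Sqle it stood at 1128, against 213 to 348 in the other 9 tumors. Control lung 3 was the highest of the control lungs in 8 of the 11 genes and control lung 4 in the other 3, while control lung 2 was the lowest in 8. Averaged over the 11 genes, the log2 signal relative to the control mean was 0.65 in middle-sized tumor 1 and between -0.52 and -0.05 in the other tumors, against 0.39 in control lung 3 and -0.44 in control lung 2. The range within control lung therefore covered all tumors but middle-sized tumors 1 and 3. These are descriptions of single arrays, which share their scaling, and carry no test.

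**Figure D3:**
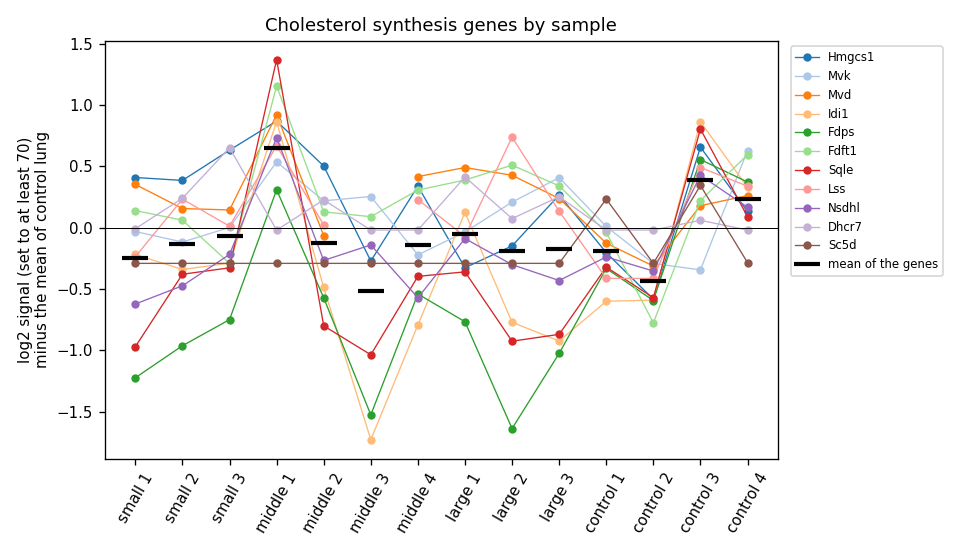
Log2 signal of the 11 tested cholesterol synthesis genes in each sample, signals set to at least 70, minus the gene's mean in control lung, with 1 line per gene and black bars for the mean of the genes. Middle-sized tumor 1 (mean 0.65) and control lung 3 (mean 0.39) are high for most genes, while middle-sized tumor 3, which lacks values for Mvd and Lss, has a mean of -0.52.

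Promoters of 34 of the tested genes could be matched to RefSeq (47 promoters, the 250 bases before each start site, GRCm38.p6). The CCAAT box was present for all 8 matched cholesterol genes and in 8 of their 10 promoters (80%), against 33.8% of all 32851 promoters. A sterol regulatory element spelled TCACNCCAC was found for 2 of the 34 genes, Hmgcs1 and Pcyt1a, in 6.38% of their 47 promoters, against 1.05% of all promoters. The E-box CACGTG, the letters that Myc and Max bind, was found for 4 of the 34, Abca1, Dhcr7, Lipe and Sc5d, in 8.51% of the 47 promoters, against 6.02% of all promoters. Only these letters were searched, on both strands, and a match is a description of letters, not of binding. The paper searched a longer stretch around each start with E-box matrices. By gel shift, with nuclear extract of c-Myc-transgenic mouse liver, it reported c-Myc binding to a Fasn promoter probe. A gene without CACGTG here may thus hold other Myc sites. The 150 bases before the start are shown for 3 cholesterol genes that were highest in middle-sized tumor 1, with these motifs in capitals: Hmgcs1 (chr13:119690201-119690350, plus strand), Mvk (chr5:114444119-114444268, plus strand) and Idi1 (chr13:8885456-8885605, plus strand).
Hmgcs1: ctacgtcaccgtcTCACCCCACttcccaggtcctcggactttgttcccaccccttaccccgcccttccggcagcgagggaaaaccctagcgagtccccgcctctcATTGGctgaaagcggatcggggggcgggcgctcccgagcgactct
Mvk: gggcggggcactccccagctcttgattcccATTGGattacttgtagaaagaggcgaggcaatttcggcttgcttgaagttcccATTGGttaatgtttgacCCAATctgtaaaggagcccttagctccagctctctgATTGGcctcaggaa
Idi1: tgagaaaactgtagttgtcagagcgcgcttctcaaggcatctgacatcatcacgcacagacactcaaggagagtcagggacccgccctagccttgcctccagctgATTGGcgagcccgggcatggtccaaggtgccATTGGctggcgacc
Hmgcs1 holds the sterol element at -137 to -129 and a CCAAT box at -45 to -41. Mvk holds 4 CCAAT boxes and Idi1 holds 2, the nearest at -14 to -10 in both.

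Genes of fatty acid uptake and activation moved in both directions. Of 7 tested, 2 rose and 2 fell (28.6% each, against 23.6% higher and 21% lower of all probe sets). Those that rose are acyl-CoA synthetases, which trap fatty acids inside the cell as CoA esters. Acsl4, which prefers arachidonate, had signals of 1331, 986 and 1287 in small tumors, 1431, 1085, 854 and 919 in middle-sized tumors and 1213, 1150.2 and 1103 in large tumors, against 661, 555, 813 and 432 in control lung. The lowest tumor, middle-sized tumor 3, was just above the highest control lung (log2 fold change 0.92, standard error 0.17, adjusted p = 0.000457). A further probe set of Acsl4 gave a larger change (log2 fold change 1.39, standard error 0.22, adjusted p = 0.000126). Acsl5, a mitochondrial and endoplasmic reticulum synthetase, averaged 1305 ± 191 in tumors (SD, n = 10), against 755 ± 118 in control lung (SD, n = 4), without overlap (log2 fold change 0.79, standard error 0.14, adjusted p = 0.000395).

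Both genes that fell act at the cell surface or in the vessel lumen. Lpl, the lipoprotein lipase that frees fatty acids from circulating triglyceride, had signals of 269.7, 344 and 282 in small tumors, 229, 301, 121 and 256 in middle-sized tumors and 136, 185 and 161 in large tumors, against 1053, 1051, 635 and 473 in control lung. Every tumor was below every control lung, and 3 of the 4 lowest values were those of the large tumors. Control lung averaged 3.52-fold the mean of tumors (log2 fold change -1.81, standard error 0.25, adjusted p = 4.35e-05), and a further probe set of Lpl fell as well (log2 fold change -1.44, standard error 0.24, adjusted p = 0.000318). Cd36, the fatty acid translocase of endothelium, macrophages and fat cells, had signals of 199, 135 and 161 in small tumors, 251, 251, 101 and 206 in middle-sized tumors and 79.5, 168 and 139.6 in large tumors, against 415, 473, 545 and 324 in control lung. The groups did not overlap, with large tumor 1 the lowest and control lung 4 the lowest of its group (log2 fold change -1.47, standard error 0.26, adjusted p = 0.000367).

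Fabp4, a fatty acid binding protein of fat cells and capillary endothelium, lay close to the limit of 70, 43.3 to 100.4 in tumors, against 82.4 to 126 in control lung (log2 fold change -0.30, adjusted p = 0.0722). Fabp5, the epidermal fatty acid binding protein, ranged over 206 to 661 in tumors, against 207 to 564 in control lung, with the highest values in large tumor 3 and control lung 4 (log2 fold change -0.0014, adjusted p = 0.998). Dbi, the acyl-CoA binding protein, ranged over 482 to 1154 in tumors, against 625 to 1046 in control lung (log2 fold change 0.02, adjusted p = 0.923).

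In glycerolipid and phospholipid metabolism, 1 of 8 genes rose and 2 fell (12.5% and 25%, against 23.6% and 21% of all probe sets). The gene that rose was Lpcat1, the acyltransferase with which type II cells remodel phosphatidylcholine for surfactant, with signals of 1086, 1601 and 1426 in small tumors, 2037, 1768 and 1217 in middle-sized tumors (no value for middle-sized tumor 3) and 1129, 1241 and 1417 in large tumors, against 736, 999, 889 and 507 in control lung. All measured tumors lay above all control lungs, and the highest were middle-sized tumors 1 and 2 (log2 fold change 0.89, standard error 0.19, adjusted p = 0.00163). The call was lost (adjusted p = 0.596) when the 0 listed for middle-sized tumor 3 was kept as a value. Of 4 tested type II cell markers, 1 rose: Sftpb, a surfactant protein, with signals of 7088 to 11012 in tumors, against 3904 to 6943 in control lung (log2 fold change 0.63, standard error 0.17, adjusted p = 0.00766), so that every measured tumor lay above every control lung. The other markers overlapped, with a summed signal of Sftpc, Napsa, Slc34a2 and the dim Sftpd of 14146 to 24216 in tumors, against 12423 to 19757 in control lung. Sftpb is left out of that sum because it has no value for middle-sized tumor 3. Sftpc had a log2 fold change of -0.02 (adjusted p = 0.937).

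Lipe, the hormone-sensitive lipase that releases fatty acids from stored fat, had signals of 130.5, 99.1 and 67.4 in small tumors, 82.5, 91.4, 208 and 63.4 in middle-sized tumors and 75.4, 88.3 and 77.2 in large tumors, against 317, 341, 337 and 161 in control lung. Middle-sized tumor 3 was the highest tumor and exceeded control lung 4, so the groups overlapped at that point (log2 fold change -1.58, standard error 0.28, adjusted p = 0.000347). Lpin1, a phosphatidate phosphatase that yields diacylglycerol, averaged 101 ± 15.3 in tumors (SD, n = 10), against 196 ± 28.2 in control lung (SD, n = 4), with no overlap (log2 fold change -0.94, standard error 0.13, adjusted p = 5.58e-05). In the phosphatidylcholine route, Chka, a choline kinase, had a log2 fold change of 0.41 (adjusted p = 0.119), and Pcyt1a, the enzyme that sets the rate of this route, of -0.22 (adjusted p = 0.328). Chpt1, the cholinephosphotransferase that ends the route and a gene of the wider list described further on, fell (log2 fold change -0.61, standard error 0.21, adjusted p = 0.0262). Dgat1, which completes triglyceride, had a log2 fold change of -0.07 (adjusted p = 0.796). Gpam, the mitochondrial acyltransferase that begins glycerolipid synthesis, was at 271 in middle-sized tumor 4 and 269 in large tumor 3, but at 732 to 1308 in the other tumors, against 658 to 790 in control lung (log2 fold change 0.08, standard error 0.37, adjusted p = 0.884). It was thus low in the same 2 tumors as Fasn and Scd1. Of the 36 lipid genes with a value in every tumor, these tumors were the lowest pair in 4 (Fasn, Scd1, Gpam and Acadl) and the highest pair in 1 (Pparg). Another of the 45 possible pairs of tumors stood out in this way in 7 genes.

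Of the 2 tested transporters and transfer proteins, Pltp had the largest fall of all the genes. Pltp, the phospholipid transfer protein that moves phospholipid between lipoproteins and is also made by alveolar cells, had signals of 403, 646 and 407 in small tumors, 1320.4, 352, 299 and 215 in middle-sized tumors and 269, 173 and 181 in large tumors, against 2634, 3447, 2399 and 2992 in control lung. Every tumor was below every control lung, with middle-sized tumor 1 far above the other tumors and 2 of the large tumors lowest. Control lung averaged 6.72-fold the mean of tumors (log2 fold change -3.05, standard error 0.35, adjusted p = 7.44e-06). Its RefSeq promoter (GRCm38.p6, chr2:164857709-164857858, minus strand, 150 bases before the start site) is shown for this largest fall. It holds none of the 3 motifs, although a CCAAT box lies farther upstream within the 250 bases searched.
Pltp: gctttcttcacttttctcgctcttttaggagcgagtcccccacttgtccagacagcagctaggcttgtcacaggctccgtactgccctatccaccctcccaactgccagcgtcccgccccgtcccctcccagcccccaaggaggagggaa
Abca1, the exporter of cholesterol to apolipoproteins, ranged over 266 to 750.0 in tumors, against 363 to 777 in control lung (log2 fold change -0.38, adjusted p = 0.194).

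Markers of endothelium and cardiac muscle fell for the most part, while most tested markers of fat cells and macrophages did not pass. The summed signal of 10 endothelial markers was 1739 to 3140 in tumors, against 19173 to 23590 in control lung. Of the 10, 9 fell, where 21% of all probe sets did, and Pecam1 did not pass (log2 fold change 0.54, adjusted p = 0.0636). For 5 adipocyte markers the sum was 246 to 510 in tumors, against 661 to 872 in control lung, and 1 of 3 tested fell. This was Adipoq, the adipokine that defines fat cells, which was at or below 50.2 in tumors, against 190 to 390 in control lung. Lep, with log2 fold change -0.02 (adjusted p = 0.944), and Cidea, with 0.00076 (adjusted p = 0.998), did not pass. Cidea reached 70 on 3 arrays only, and before the floor 8 tumors were below every control lung, with 1 above. Retn, too dim to be tested, was at 4.26 to 12.1 in tumors, against 22.2 to 123 in control lung. Cidec and Ucp1 were below 70 on every array. Cidec was at 0.78 to 4.04 in tumors, against 19.2 to 27.4 in control lung, while Ucp1 overlapped. For 9 macrophage markers the sum was 4210 to 7766 in tumors, against 6225 to 8303 in control lung, and of 6 tested Csf1r and Mrc1 fell. All 6 tested markers of cardiac muscle, which burns fatty acids, fell (sum of 7 markers 408 to 639.7 in tumors, against 4058 to 6733 in control lung). The part of these cells in the lower Lpl, Cd36, Lipe and Pltp signals was not tested. Of 2 tested hepatocyte markers, Apob was higher, 399 to 2261 in tumors, against 8.48 to 42.3 in control lung (log2 fold change 3.90, standard error 0.49, adjusted p = 1.82e-05), and Alb did not pass (log2 fold change 0.53, adjusted p = 0.0773). The sum of 7 such markers, to which Apob contributes, was 608 to 2637 in tumors, against 101 to 178 in control lung, while Apoa1, Apoa2, Fgb and Ttr were below 70 on every array.

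Of 6 tested genes of mitochondrial oxidation, 3 rose and 1 fell (50% and 16.7%, against 23.6% and 21% of all probe sets). Those that rose are enzymes of the beta-oxidation spiral. Acadm, the medium-chain acyl-CoA dehydrogenase, averaged 1184 ± 161 in tumors (SD, n = 10), against 867 ± 104 in control lung (SD, n = 4), with every tumor above every control lung (log2 fold change 0.44, standard error 0.12, adjusted p = 0.00806). Hadh, which carries out the third step of the spiral, averaged 963 ± 175 in tumors (SD, n = 10), against 602 ± 56.8 in control lung (SD, n = 4), and middle-sized tumor 1 (622) lay inside the control range (log2 fold change 0.66, standard error 0.15, adjusted p = 0.00199). Acadl, the long-chain acyl-CoA dehydrogenase, averaged 385 ± 90.0 in tumors (SD, n = 10), against 259.6 ± 48.3 in control lung (SD, n = 4), with overlap between the groups (log2 fold change 0.55, standard error 0.17, adjusted p = 0.0176). This call was lost without control lung 4 (adjusted p = 0.0741).

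The gene that fell was Cpt1a, the carnitine palmitoyltransferase of the outer mitochondrial membrane that controls entry, with signals of 1315, 1139 and 1128 in small tumors, 1326, 1304, 1729.8 and 714 in middle-sized tumors and 720.4, 527 and 587 in large tumors, against 1687, 1958, 1903 and 1098 in control lung. The large tumors and middle-sized tumor 4 were below every control lung. The other 6 tumors lay above control lung 4, and middle-sized tumor 3 also above control lung 1 (log2 fold change -0.76, standard error 0.20, adjusted p = 0.007). Cpt2, its partner of the inner membrane, ranged over 454 to 587 in tumors, against 471 to 498 in control lung (log2 fold change 0.11, adjusted p = 0.35). For Acads, the short-chain dehydrogenase, 2 probe sets disagreed. The brighter one had signals of 288, 282 and 325 in small tumors, 571, 279 and 223 in middle-sized tumors (no value for middle-sized tumor 3) and 295, 565 and 378 in large tumors, against 402, 344, 350.1 and 773 in control lung (log2 fold change -0.38, standard error 0.27, adjusted p = 0.288). The other had signals of 299, 320.0 and 349 in small tumors, 151, 322, 310.3 and 294 in middle-sized tumors and 336, 299.8 and 269 in large tumors, against 163, 148, 176 and 189.5 in control lung (log2 fold change 0.79, standard error 0.18, adjusted p = 0.00295). It was called higher and the brighter one was not, so no direction is given for Acads. Among all probe sets past the filter, 43.4% were called in either direction in that fit.

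**Figure D4:**
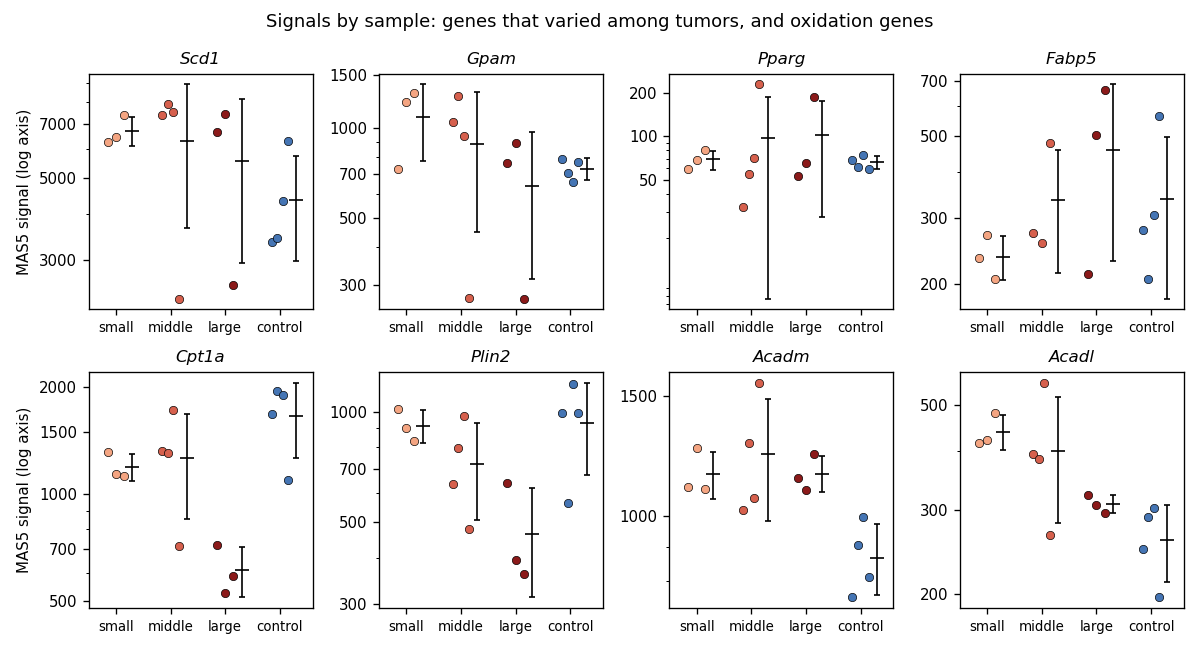
MAS5 signals (log axis) by sample of Scd1, Gpam, Pparg and Fabp5, which varied widely among tumors, and of Cpt1a, Plin2, Acadm and Acadl, with points for arrays and black marks for the mean and SD of each group. Middle-sized tumor 4 and large tumor 3 are low for Scd1 and Gpam and high for Pparg, and the lowest values of Cpt1a and Plin2 are those of large tumors 2 and 3.

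Lipid genes outside the 51 were examined as a wider list of 112, of which 73 were on the array and 55 were tested. Of these, 13 were higher (23.6%) and 8 lower (14.5%) in all tumors, with a median log2 fold change of 0.00. Among its oxidation genes, 8 of 15 tested were higher and none lower (median log2 fold change 0.42), where 23.6% and 21% of all probe sets were called. In large tumors alone, 4 of these 15 were higher (Echs1, Eci1, Etfa and Hsd17b10) and 2 lower (Ech1 and Slc25a20), against 19.8% and 18.3% of all probe sets. Echs1, the enoyl-CoA hydratase of the second step, had signals of 644 to 1067 in tumors, against 214 to 379 in control lung (log2 fold change 1.45, standard error 0.16, adjusted p = 3.94e-06). Hsd17b10, a dehydrogenase that acts on branched-chain acyl-CoA, had signals of 547 to 1168 in tumors, against 258 to 375 in control lung (log2 fold change 1.21, standard error 0.17, adjusted p = 5.72e-05). Acaa1a, Acaa2, Eci1, Eci2, Etfa and Etfb rose too, with log2 fold changes from 0.38 (Acaa2) to 0.70 (Eci2). A dimmer probe set of Etfb had signals of 55.1 to 104 in tumors, against 90.4 to 176 in control lung, the other way round. The largest rise was that of Apoc1, an apolipoprotein that inhibits lipoprotein lipase, with signals of 785 to 3386 in tumors, against 234 to 284 in control lung (log2 fold change 2.41, standard error 0.29, adjusted p = 1.14e-05). The largest falls were those of Mgll, the monoacylglycerol lipase (81.1 to 150.2 in tumors, against 339.6 to 455 in control lung; log2 fold change -1.82, standard error 0.17, adjusted p = 1.11e-06), Ggps1, the geranylgeranyl diphosphate synthase (log2 fold change -1.17, standard error 0.12, adjusted p = 2.24e-06), and Nr1h3, the sterol-sensing receptor LXR alpha (log2 fold change -0.93, standard error 0.23, adjusted p = 0.0042). A further probe set of Ggps1 had overlapping signals, 44.0 to 92.1 in tumors, against 80.1 to 119 in control lung.

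By size, 8 genes were higher and 6 lower in small tumors (19.9% and 16.7% among all probe sets), 10 and 5 in middle-sized tumors (15.8% and 16.4%), and 9 and 8 in large tumors (19.8% and 18.3%), each against control lung. Fasn had log2 fold changes of 1.64 in small, 1.5 in middle-sized and 1.58 in large tumors. For Me1 they were 1.48, 1.84 and 1.25 in the same order of size. The rises of Fasn, Me1, Acly, Acsl4, Acsl5, Lpcat1 and Hadh and the falls of Cd36, Lpl, Lipe, Lpin1 and Pltp were called at all 3 sizes. Srebf1 and Acadm were called in middle-sized and large tumors, and Acadl in small and middle-sized tumors. Fabp4 was called lower in small tumors, at an adjusted p of 0.0462 that was lost without control lung 1 or 4, any 1 of the small tumors, middle-sized tumor 2 or 3, or large tumor 1 (adjusted p up to 0.110). The call of Acadl in small tumors was lost without small tumor 3 (adjusted p = 0.0585), and that of Lpcat1 without small tumor 2 or 3 (adjusted p up to 0.0696). In middle-sized tumors that of Acadl was lost without control lung 1 or 4, middle-sized tumor 1, 2 or 3, or small tumor 2 (adjusted p up to 0.110). Those of Acadm (without control lung 1 or middle-sized tumor 4), Acly (without middle-sized tumor 4) and Hadh (without middle-sized tumor 2 or 4) were lost too, at adjusted p up to 0.0593. In large tumors the calls of Acadm, Acly, Hadh, Lpcat1 and Srebf1 were each lost without 1 or more arrays (adjusted p up to 0.134). Fdps was called lower in large tumors and at no other size (log2 fold change -1.14, adjusted p = 0.0264). That call was lost without control lung 3 or 4 or large tumor 2 (adjusted p up to 0.124). The count of 9 higher genes in large tumors fell to 5 without control lung 2, large tumor 1 or large tumor 2.

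A few genes had their largest fold changes in the large tumors. Cpt1a had log2 fold changes of -0.44 in small, -0.42 in middle-sized and -1.42 in large tumors, and it was called in the large tumors alone (adjusted p = 0.000719). Plin2, which coats lipid droplets, had signals of 1017, 901 and 833 in small tumors, 635, 796, 973 and 479 in middle-sized tumors and 641, 395 and 361 in large tumors, against 991, 565, 1187 and 990.2 in control lung. All 3 large tumors were below every small tumor, and control lung 2 (565) lay within their range. Its log2 fold change was 0.02 in small tumors (adjusted p = 0.969), -0.37 in middle-sized tumors (adjusted p = 0.309) and -1.0 in large tumors (adjusted p = 0.0114). The call in large tumors was lost without large tumor 3 (adjusted p = 0.0548). For Pltp the log2 fold changes were -2.59, -2.77 and -3.80, and for Lpl -1.36, -1.82 and -2.25, in small, middle-sized and large tumors.

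None of these differences between sizes passed the test of the difference itself. In limma, 0 of the 43 genes were called between large and small, middle-sized and small, or large and middle-sized tumors, against 0.0289%, 0% and 0% of all probe sets. At an unadjusted p under 0.05 there were 6, 1 and 5 genes, and the methods' t-test at its unadjusted threshold called 9, 1 and 2. For large against small tumors Cpt1a differed by -0.97 (adjusted p = 0.335), Plin2 by -1.02 (adjusted p = 0.341) and Pltp by -1.22 (adjusted p = 0.531) on the log2 scale. Without middle-sized tumor 4, Cpt1a was called between large and middle-sized tumors (log2 fold change -1.25, adjusted p = 0.0385).

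**Figure D5:**
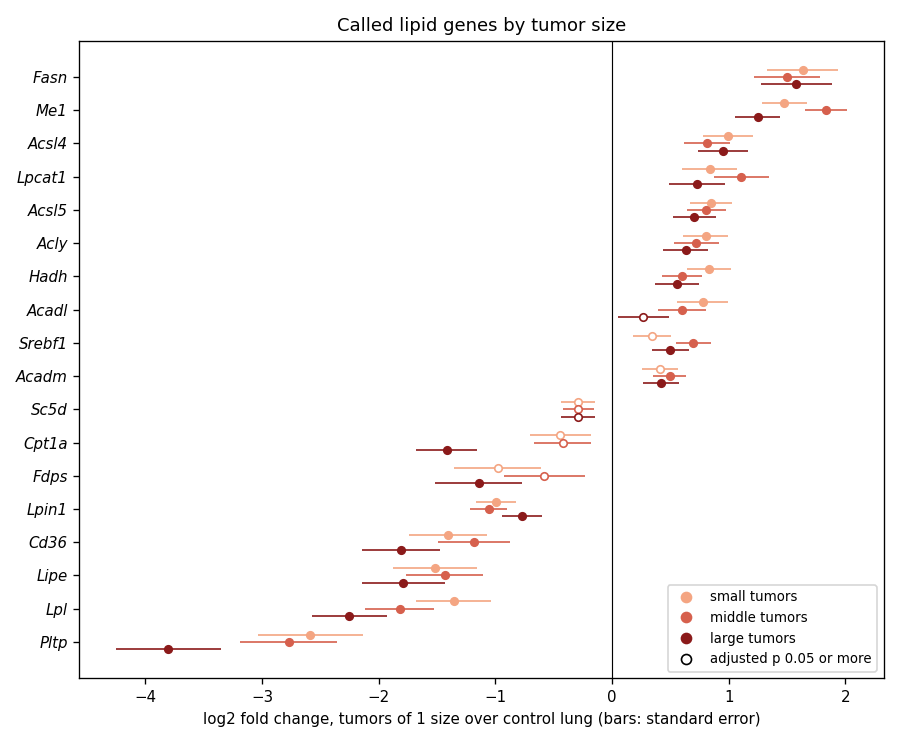
Log2 fold change of small, middle-sized and large tumors over control lung for the 18 lipid genes called in all tumors, with bars for standard errors and open points at an adjusted p of 0.05 or more. The 3 sizes share the same control lungs, and the widest gap between sizes is that of Pltp, from -2.59 in small to -3.80 in large tumors.

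Over the 14 arrays, the genes whose log2 signals were most like those of Fasn among 5125 genes were Bsg, H2-Ea and Ppic (Pearson r 0.976, 0.967 and 0.945), and those most like Pltp were Adh1, Pdgfra and Emp3 (0.975, 0.974 and 0.969). These are descriptions over tumors and control lung together, so a shared difference between the groups sets most of each value.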

How the data were processed

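RNA of 10 tumor samples and 4 control lungs was hybridised to Affymetrix U74v2 arrays. The authors computed the deposited signals with MAS5, a linear intensity per probe set scaled to a target of 250 on each array. They were used as deposited. Such scaling gives each gene relative to the transcripts measured on its array.

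The table holds 12488 probe sets, including 66 controls that were dropped. In the platform annotation 10833 of the remaining 12422 carried 1 gene symbol, 396 more than that and 1193 no symbol. Values at 0 or below 1e-06 were treated as missing, signals were set to at least 70, below which the study did not count a gene as expressed, and log2 was taken. The filter asked for 70 or more on 3 or more arrays and for the brightest probe set of each symbol, which left 6914. Further probe sets of a gene come from a fit of all 8127 that passed. On 13 arrays 6796 to 7575 probe sets reached 70, and on middle-sized tumor 3, 5630. A gene whose tumors are all below 70 has a fold change that depends on this floor.

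The 4 groups were fitted in 1 model in limma 3.58.1 (R 4.3.3, lmFit and eBayes with trend), with Benjamini-Hochberg adjustment, and the fit was tested on simulated data. All tumors is the mean of the 3 sizes. The genes, roles, wider lists and markers were chosen with earlier results of these data known. Values per sample were given for called genes with a log2 fold change of at least 1 in either direction, for genes with disagreeing probe sets and where a role needed them. Of the wider list, the 3 largest rises and falls were named. Genes most like Fasn and Pltp were ranked by Pearson r over 14 arrays. Alternatives were other floors, filters, scalings, spreads, sample sets and tests, array weights, a replicate block and leaving out each array. Detection and change calls were not used here.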

Additional observations from a re-analysis of the deposited data

Results flagged for a closer look

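Within groups of 4 arrays, 79 groups of signals were examined for 1 array whose gap to the nearest other took up most of the group's range (Dixon's criterion). There were 8 such cases, several of them on the same array. Chance would flag about 1 in 20 groups, or 3.95 here, if the groups were independent. Genes measured on the same array are not, so the count of cases carries no test. Middle-sized tumor 1 was the highest of its group for 3 genes. Its signal was 1320.4 for Pltp, against 215 to 352 in the others, 765 for Fdft1, against 366 to 425, and 1128 for Sqle, against 213 to 331. Middle-sized tumor 4 was low for Scd1 at 2365, where the others stood at 7397 to 7936.

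In control lung, replicate 4 was apart for 3 genes. It was low for Lipe at 161, with the others at 317 to 341, and high for Ppara at 188, with the others at 109 to 112. It was also high for the brighter Acads probe set at 773, with the others at 344 to 402. Control lung 1 was low for Dgat1 at 118, with the others at 153 to 159.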

How the results depend on the processing

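Of the 18 genes called in all tumors, 12 kept the call in all 28 alternatives and none changed sign. Besides Acly, Lpcat1, Fdps, Acadl and Sc5d, described with their values, Cpt1a lost it in the methods' t-test after Benjamini-Hochberg (adjusted p = 0.0869). Of the 25 genes not called, 8 passed in 1 or more alternatives (Abca1, Chka, Dhcr7, Fabp4, Mvd, Plin2, Scd1 and Sqle) and 6 changed sign. Leaving out 1 array brought in Chka (without middle-sized tumor 2, adjusted p = 0.048), Plin2 (without control lung 2, adjusted p = 0.0206, or large tumor 1, adjusted p = 0.0496) and Fabp4 (without middle-sized tumor 1, large tumor 2 or control lung 3, adjusted p from 0.028 to 0.0477). The cause was not tested. Scaling every array to 1 median raised the median log2 fold change of all probe sets by 0.12 for small tumors and by 0.11 for middle-sized tumors, so small rises and falls are relative to the scaling.

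Leaving out each array gave 9 to 12 genes higher and 7 to 9 lower in all tumors. The ranges were 6 to 10 higher and 5 to 8 lower for small tumors, 7 to 10 higher and 5 to 6 lower for middle-sized tumors, and 5 to 9 higher and 7 to 9 lower for large tumors. Between sizes it gave 0 for large against small and for middle-sized against small tumors, and 0 to 1 for large against middle-sized tumors. Array weights called 13 genes higher and 10 lower in small tumors, where 8 and 6 were reported. The methods' t-test at an unadjusted threshold called 13 higher in small tumors and, between sizes, 9 for large against small, 1 for middle-sized against small and 2 for large against middle-sized tumors. After Benjamini-Hochberg it called 5 higher and 3 lower in middle-sized tumors.

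Deviations from the group means had r from -0.23 to 0.13 between samples with the same replicate number (median -0.05 over 19 pairs). Between samples with other numbers r was -0.39 to 0.54 (median 0.02 over 54 pairs). That spread is too wide for this check to exclude a pairing, and the numbers were taken to mark separate animals. With the replicate number as a block, 10 genes were higher and 8 lower in all tumors. The counts were 9 higher and 6 lower for small tumors, 10 higher and 6 lower for middle-sized tumors, 7 higher and 8 lower for large tumors, and 0 between sizes. Signals near 70, as for Fabp4, Sc5d, Dhcr7 and Lss, are limited by the brightness of the probe sets.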
